A study of Mus musculus with 4 samples.

Results

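Small RNA of mouse sperm was read here for 9 miRNA hairpins that earlier work on mouse sires given a changing series of stressors reported as raised in sperm: miR-29c, miR-30a, miR-30c, miR-32, miR-193a, miR-204, miR-375, miR-532 and miR-698. They were chosen by name, and the tables call them mmu-mir-29c, mmu-mir-30a, mmu-mir-30c, mmu-mir-32, mmu-mir-193a, mmu-mir-204, mmu-mir-375, mmu-mir-532 and mmu-mir-698. Every row of the 4 deposited tables whose annotation names only these hairpins was kept, joined by sequence and summed per hairpin, apart for reads of 15 to 17 nt and for reads of 18 nt or longer. The tables held 430 miRNA labels with reads, single and joint, and 389 with reads of 18 nt or longer. Of the 9 miRNAs, 8 had reads and miR-698 had none in any library. The 2 Mdd libraries came from C57BL mice made depressive-like by chronic unpredictable mild stress, a daily random choice among an empty or tilted cage, damp sawdust, white noise, strobe light, tube restraint, isolation and circadian disturbance. The 2 control libraries came from C57BL mice left undisturbed outside feeding and cage cleaning. The labels give no age and no genotype beyond the strain. They name testis and testicular cells as the material, whereas the protocol describes RNA taken from sperm. Whether the replicates are different animals is not stated, so every p-value below rests on a spread between libraries that may be technical.

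A miRNA is cut from a hairpin precursor, and either arm, 5p or 3p, can be loaded into an Argonaute protein. Bases 2 to 8 of the loaded strand, the seed, choose its target mRNAs by pairing with their 3′ untranslated regions. Sperm carries small RNAs into the egg at fertilisation, and they have been studied as a route by which a father's experience could reach the embryo. The miR-29 family is known for limiting collagen and DNA methyltransferase mRNAs. The miR-30 family is widely expressed, miR-375 is best known from pancreatic islets, where it limits insulin release, and miR-204 is known from the eye. miR-32 belongs to the seed family of miR-25 and miR-92, and miR-532 sits in an X-linked group of intronic miRNAs.

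The mature strands on which the results turn are shown with the seed in capitals. The first 8 are RefSeq sequences (GRCm38.p6, written with U). The last pair, the 3p strand of miR-375 and the 5p strand of miR-532, are the most read sequences of those arms in the deposited tables, written with T.
miR-30a-5p: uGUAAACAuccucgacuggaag
miR-30c-5p: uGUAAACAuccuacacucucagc
miR-30a-3p: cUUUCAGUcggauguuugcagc
miR-29c-3p: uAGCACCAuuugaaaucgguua
miR-29c-5p: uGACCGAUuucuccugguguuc
miR-204-5p: uUCCCUUUgucauccuaugccu
miR-32-5p: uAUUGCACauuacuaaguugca
miR-193a-3p: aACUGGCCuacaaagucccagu
miR-375, 3p arm: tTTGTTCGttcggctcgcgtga
miR-532, 5p arm: cATGCCTTgagtgtaggaccgt
miR-30a-5p and miR-30c-5p share 1 seed and 17 of 22 bases counted from the 5′ end, so they are 1 family by target choice. No other seed in this set is shared between members.

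In GRCm38 the miR-29c hairpin lies on chromosome 1 from 195037547 to 195037634 on the plus strand, within an exon of the non-coding gene A330023F24Rik and opposite an exon of Cd46. miR-30a (chromosome 1, 23272269 to 23272339, plus strand) and one copy of miR-30c, Mir30c-2 (chromosome 1, 23291701 to 23291784, plus strand), are neighbours, the second in an exon of the long non-coding gene Gm27028. The other copy, Mir30c-1, lies in an intron of Nfyc on chromosome 4 from 120769534 to 120769622. miR-32 lies in an intron of Tmem245 (chromosome 4, 56895229 to 56895298), miR-204 in an intron of Trpm3 (chromosome 19, 22750605 to 22750672) and miR-532 in an intron of Clcn5 (chromosome X, 7248402 to 7248497). Each is on the strand of its host gene. miR-375 (chromosome 1, 74900658 to 74900721) and miR-193a (chromosome 11, 79711969 to 79712034) overlap no annotated gene other than their own. miR-698 (chromosome 4, 124743781 to 124743889) overlaps an exon of Inpp5b.

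The tables held 24031479 and 24112532 reads in Mdd replicates 1 and 2 and 12845403 and 22948488 in control replicates 1 and 2. miRNA reads of 18 nt or longer numbered 198947 and 94011 in Mdd and 71902 and 263748 in control, and levels are given as CPM, which scale these reads to the same total in every library. Past a first fall at the lowest values, copies per distinct genome-matched sequence peaked at 44 and 7 in Mdd and 7 and 10 in control. This peak is called the usual copy number below, although sequences with fewer reads also occurred. Reads are thus not independent molecules, and every interval below covers counting error only. Germ cell markers summed to 318195 and 257640 CPM in Mdd and 276321 and 140684 CPM in control. Control replicate 2 stood apart from the other libraries, with striated muscle markers at 67546 CPM, while they were at 1508 and 1649 CPM in Mdd and 4256 CPM in control replicate 1. Of these 7 markers 3 had no reads in each Mdd library, and 2 and 1 had none in control replicates 1 and 2. Markers of smooth muscle, stroma and endothelium were also highest in control replicate 2, at 124505 CPM. They summed to 56694 and 73938 CPM in Mdd and 62905 CPM in control replicate 1. Blood markers summed to 59921 and 50335 CPM in Mdd and to 46967 and 6548 CPM in control. Most of each sum was miR-451a, named here after its values were seen (57508 and 47782 CPM in Mdd, 45520 and 5608 CPM in control). The other blood markers with enough reads to test showed no common direction. Counted by single labels, 3 of the 7 blood markers had no reads in each Mdd library, and 2 and 0 had none in control replicates 1 and 2.

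Together the 9 miRNAs made up 2.15% and 1.66% of miRNA reads in Mdd and 1.89% and 1.36% in control. All 89 distinct sequences counted for them lie whole in the RefSeq hairpin of their miRNA, and all were marked as genome-matched in the tables. Of the 79 sequences of 18 nt or longer, 15 were read in all 4 libraries, and these held 89.2% of the reads. Another 44 were read in 1 library only.

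None of these miRNAs passed the test between Mdd and control. The 7 with enough reads to test gave 4 positive and 3 negative log2 fold changes (Mdd over control), and positive values made up 47.9% of the 236 labels tested. This split depended on the processing. It was 6 positive and 1 negative with DESeq2 or with reads of all lengths, and 1 positive and 6 negative when levels were set against reads of all classes. With edgeR's quasi-likelihood test 0 of the 7 passed an adjusted p of 0.05 and 0 had an unadjusted p under 0.05 (lowest adjusted p = 0.952, lowest unadjusted 0.182). The background for these counts is 0% of labels passing with edgeR, 4.66% at an unadjusted p under 0.05, and 1.29% of 389 labels passing with DESeq2, which also called 0 of the 7 (lowest adjusted p = 0.83). Their median log2 fold change was 0.37, beside -0.04 over all labels tested. It was 0.97 without control replicate 2, and -0.85 when levels were set against reads of all classes, a scaling that shifts the labels tested both ways by a median of -1.03. The CPM of Mdd and control libraries did not overlap for 1 of the 7, beside 38.1% of all labels tested.

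**Figure D1:**
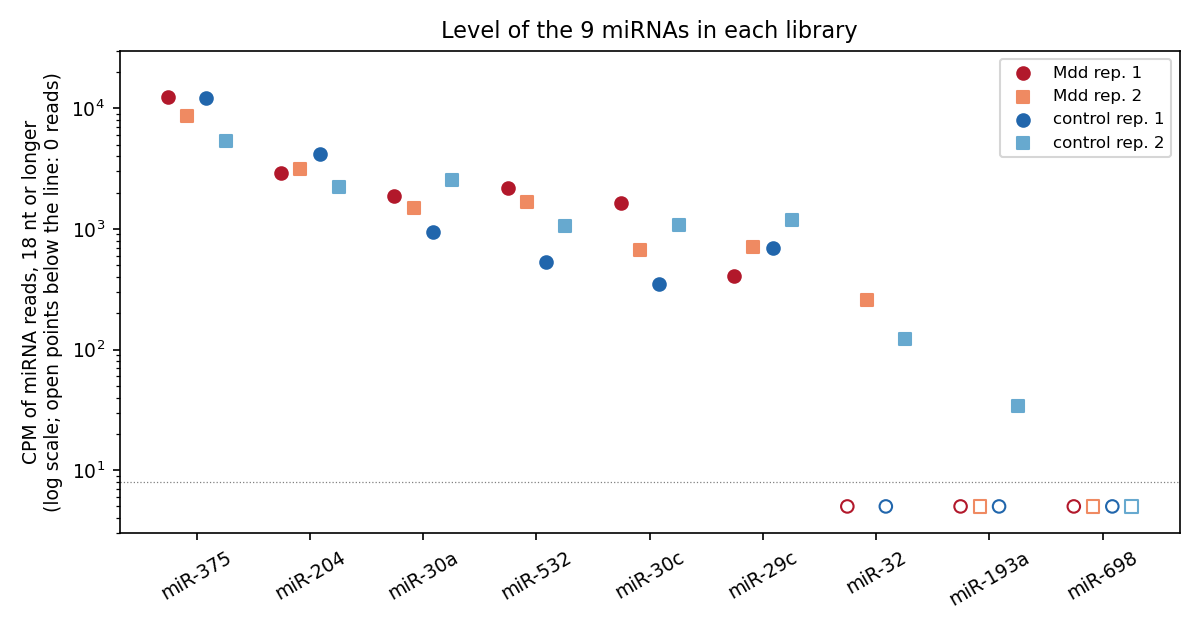
Level of each miRNA in each library, in CPM of miRNA reads of 18 nt or longer on a log axis; filled points are single libraries (2 Mdd, 2 control) and open points under the dotted line are libraries with 0 reads. miR-375 lies highest in every library, miR-532 is the one miRNA with both Mdd points above both control points, and miR-193a and miR-698 have no Mdd reads.

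miR-375 was the most abundant of the set in every library. It stood at 12471 and 8669 CPM in Mdd (2481 and 815 reads) and at 12183 and 5319 CPM in control (876 and 1403 reads). The groups overlapped, with control replicate 2 lowest. The log2 fold change was 0.37 (SE 0.68, adjusted p = 0.992 with edgeR), and it became -0.05 without control replicate 2. All of its reads of 18 nt or longer came from the 3p arm, the strand known as active. Reads of 22 nt, the length of the sequence shown above, held 91.4% of the arm's reads in Mdd replicate 1 and 81.7% in Mdd replicate 2, against 88.8% and 83.2% in control replicates 1 and 2. The strand thus had 1 leading form in every library.

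miR-204 stood at 2915 and 3159 CPM in Mdd and 4200 and 2241 CPM in control. Both Mdd libraries lay between the 2 control libraries. It was second to miR-375 except in control replicate 2, where miR-30a was higher. The log2 fold change was -0.01 (SE 0.67, adjusted p = 0.998 with edgeR). All reads came from the 5p arm, and at least 98.3% of them in each library began at the RefSeq start. Its 22 nt form held 69.3% and 59.6% of reads in Mdd and 75.2% and 70.4% in control. Below them the order of miR-30a, miR-532, miR-30c and miR-29c differed from library to library.

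miR-532 gave the largest positive fold change among the members with reads in every library. Its hairpin stood at 2181 and 1681 CPM in Mdd (434 and 158 reads) and at 528 and 1050 CPM in control (38 and 277 reads). Both Mdd values lay above both control values. The log2 fold change was 1.29 (SE 0.90), with an adjusted p of 0.952 with edgeR and a range of 0.42 to 0.9999 over the alternatives tried, and it was positive in all 15 of them (0.28 to 2.01). Most reads came from the 5p strand shown above. The 3p strand, which the earlier work on stressed sires named, had 0 and 36 reads in Mdd and 0 and 3 in control. In Mdd replicate 2 it made up 22.8% of the hairpin's reads (95% Wilson interval 16.9% to 29.9%), and the other 3 libraries held at most 1.08%. Another 88 reads of the 3p strand in Mdd replicate 2 had a 3′ end unlike the hairpin's and the label piRNA. They are left out of this share and of its interval.
miR-532-3p: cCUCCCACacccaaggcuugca

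The direction of the miR-30 pair was not resolved. miR-30a stood at 1880 and 1479 CPM in Mdd and 946 and 2563 CPM in control, with both Mdd libraries between the controls (log2 fold change -0.07, SE 0.86). miR-30c had 1634 and 670 CPM in Mdd and 348 and 1069 CPM in control, and the groups overlapped (0.70, SE 1.09; adjusted p = 0.992 with edgeR for both miRNAs). Without control replicate 2, the library with high muscle and stromal markers, the fold change of miR-30a was 0.97 and that of miR-30c was 1.89. The part of muscle or stromal cells in these values was not tested.

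Use of the hairpin arms differed between libraries for miR-30a. The 3p strand held 77.8% (Wilson interval 73.3% to 81.7%) and 63.3% (55.04% to 70.9%) of its reads in Mdd, and 57.4% (45.5% to 68.4%) and 44.2% (40.5% to 48.0%) in control. Both Mdd shares lay above both control shares, but how many of all labels part in this way was not counted. The shares leave out the tailed reads described below, 41 and 44 in Mdd and 30 and 133 in control, most of them 3p. Shares with these reads added were not worked out. The intervals of Mdd replicate 2 and control replicate 1 overlap, and 2 against 2 libraries cannot give an exact permutation p under 0.33. The 374 reads of Mdd replicate 1 were 6 distinct sequences, in a library whose copies per sequence peaked at 44, so its interval is too narrow. The 3′ ends varied as well. Of the 5p reads of miR-30a, 91.6% were 22 nt long in Mdd replicate 1 and 1 of 51 in Mdd replicate 2, against 10.3% and 23.9% in control replicates 1 and 2, where forms of 23 and 24 nt prevailed. These shares rest on 83 and 51 reads in Mdd and 29 and 377 in control. The 83 reads of Mdd replicate 1 were only 2 distinct sequences, so copies of single molecules can carry the 91.6%.

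**Figure D2:**
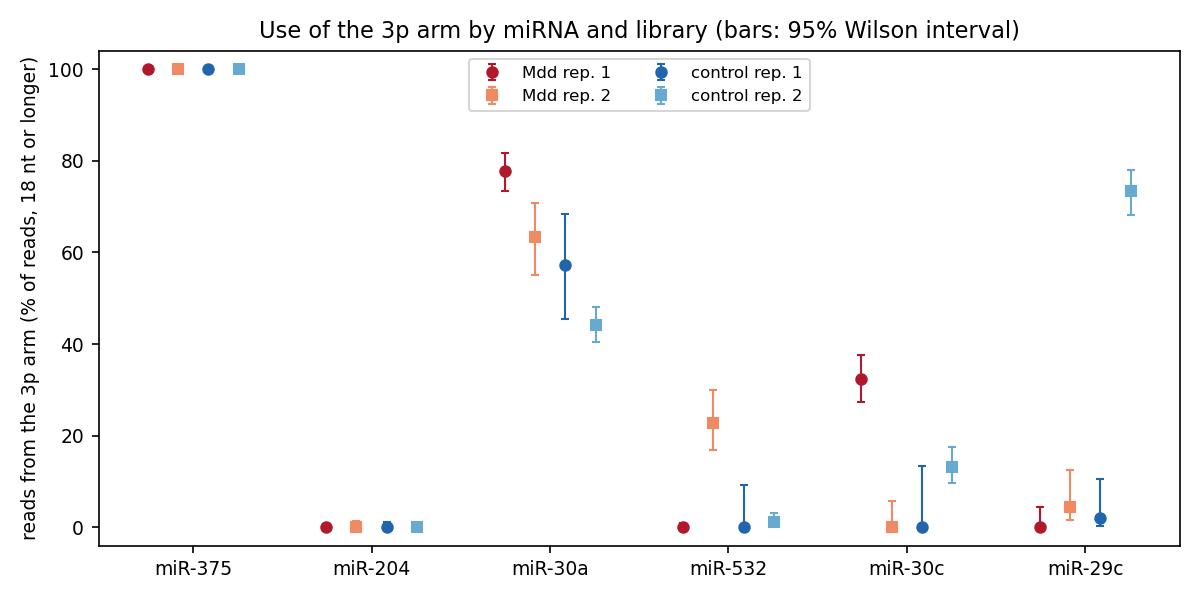
Share of each miRNA's reads (18 nt or longer) from the 3p arm, in percent, for the 6 miRNAs with reads in all 4 libraries; points are single libraries and bars are 95% Wilson intervals of the read counts. miR-375 is at 100% and miR-204 at 0% in all libraries, miR-30a runs between 44.2% and 77.8%, and miR-29c is at 73.3% in control replicate 2 and at 4.55% or less elsewhere.

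For miR-30c the 5p strand is the same in both hairpin copies, so its 220 and 63 reads in Mdd and 25 and 245 in control cannot be split between them, apart from 1 read that fits Mir30c-2 only. The 3p strands differ between copies. Mir30c-2 gave 105 and 0 such reads in Mdd and 0 and 34 in control, and Mir30c-1 gave 3, all in control replicate 2. The most read 5p form was 24 nt long in every library, 1 base longer than the RefSeq strand, at 74.1% and 65.1% of 5p reads in Mdd and 60.0% and 56.3% in control.

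miR-29c stood at 407 and 702 CPM in Mdd (81 and 66 reads) and at 695 and 1194 CPM in control (50 and 315 reads). Mdd replicate 2 and control replicate 1 were nearly equal, and control replicate 2 was highest. The log2 fold change was -0.78 (SE 1.11, adjusted p = 0.992 with edgeR) and -0.21 without control replicate 2. It was negative in all 15 alternatives. The strand that carries the family's seed, miR-29c-3p, had 0 and 3 reads in Mdd and 1 and 231 in control. It made up 73.3% of the hairpin's reads in control replicate 2 (Wilson interval 68.2% to 77.9%), the library with high muscle and stromal markers. The part of muscle or stromal cells in this was not tested.

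Outside control replicate 2 nearly all miR-29c reads were 5p strands. The most read sequence of this hairpin over the 4 libraries was a 23 nt 5p form that begins 2 bases further in, shown with its own bases 2 to 8 in capitals.
miR-29c, 5p arm, shifted start: aCCGATTTctcctggtgttcaga
Forms with this start held 78 of 81 and 63 of 63 5p reads in Mdd and 21 of 49 and 53 of 84 in control. That is 96.3% (Wilson interval 89.7% to 98.7%) and 100% (94.3% to 100%) in Mdd, against 42.9% (30.02% to 56.7%) and 63.1% (52.4% to 72.6%) in control. Bases 2 to 8 of the shifted form match those of no mature mouse miRNA in the RefSeq table. That table is incomplete, since it lacks the 3p strand of miR-375 and the 5p strand of miR-532, so a match outside it is possible. The 81 reads of Mdd replicate 1 were 3 distinct sequences, in a library whose copies per sequence peaked at 44, so the counting intervals are too narrow there. No exact permutation p under 0.33 is possible for this share either, and how many of all labels part in this way was not counted.

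**Figure D3:**
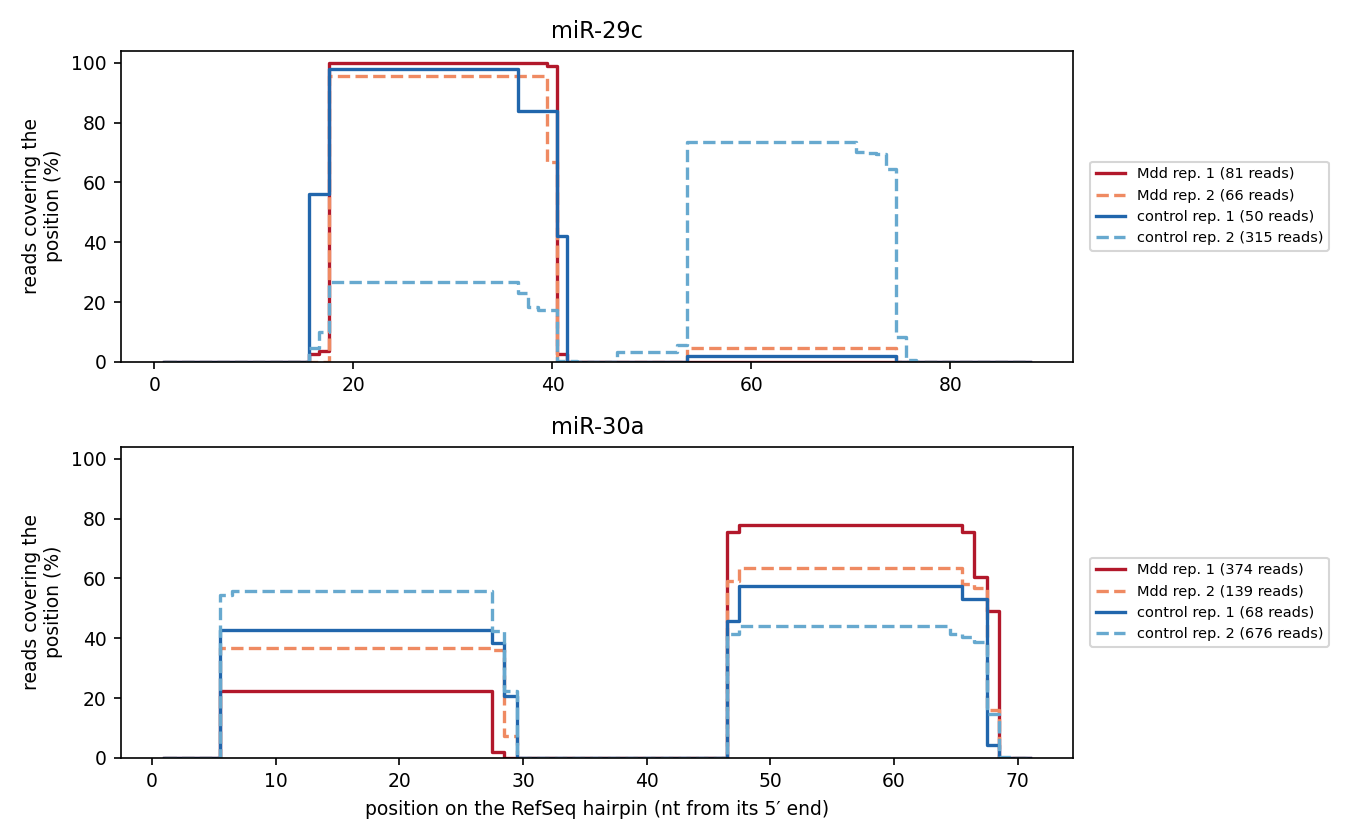
Share of reads (18 nt or longer, in percent) covering each position of the miR-29c and miR-30a hairpins, counted in nt from the hairpin's 5′ end; each line is 1 library, solid for replicate 1 and dashed for replicate 2. Control replicate 2 is the one library with most miR-29c reads on the 3p side, and control replicate 1 shows the step of miR-29c reads that begin 2 bases before the others.

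miR-32 and miR-193a were at the edge of detection. miR-32 had 0 and 24 reads in Mdd (0 and 255 CPM) and 0 and 32 in control (0 and 121 CPM), so each group had 1 library without it. With 3 reads as the floor, 0 reads leave room for 15.1 CPM in Mdd replicate 1 and 41.7 CPM in control replicate 1. With 3 sequences at the usual copy number they leave room for 663 and 292 CPM, above the levels of miR-32 in the other libraries, so its absence from the first library of each group is not shown. Its fold change, 0.86 with an SE of 2.72, is too uncertain to give a direction. In control replicate 2, 21 of the 32 reads were a 29 nt form that runs past the end of the mature 5p strand. miR-193a had no read of 18 nt or longer in Mdd or in control replicate 1, and 9 reads in control replicate 2, 4 of them from the 5p strand that the earlier work named. It was too rare to test.

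Shorter reads of miR-193a, of 15 to 17 nt, numbered 0 and 0 in Mdd and 26 and 234 in control. All of them begin at the first base of miR-193a-3p and stop short of its end. The sequence of 15 nt had 26 and 27 reads in control replicates 1 and 2, and that of 16 nt had 0 and 206.
miR-193a, 3p arm, 15 nt: aACTGGCCtacaaag
miR-193a, 3p arm, 16 nt: aACTGGCCtacaaagt
This length class held 1.18% and 1.27% of all reads in Mdd and 24.4% and 27.0% in control, so a difference in these miRNAs and one in the length selection cannot be told apart. Over all 9 miRNAs such reads numbered 1 and 12 in Mdd and 55 and 314 in control. Those in Mdd were all 1 sequence of miR-30a-5p, which ends where the hairpin goes on with the bases TGG. In control, 3 of 55 and 45 of 314 ended so.
miR-30a, 5p arm, 16 nt: tGTAAACAtcctcgac

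miR-698 had 0 reads of any length. No row of any table, whatever its annotation, lay whole in its hairpin. With a floor of 3 reads its level could be up to 15.1 and 31.9 CPM in Mdd and 41.7 and 11.4 CPM in control. If 3 sequences at the usual copy number are taken as the floor, the limits are 663 and 223 CPM in Mdd and 292 and 114 CPM in control. At this depth it was not detectable.

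Part of the reads of these miRNAs may stand under other names in the tables. Reads with no genome match and no miRNA name were called tailed if they became a sequence of these miRNAs once 1 to 3 bases were taken off the 3′ end. This rule does not tell added bases from a base change near the 3′ end. Of these tailed reads, 98.2% and 95.4% in Mdd and 96.0% and 97.0% in control carried the label piRNA. They numbered 664 and 412 in Mdd and 226 and 659 in control, from 7 of the 9 miRNAs. That is 13.4% and 20.9% of all reads of the set in Mdd and 14.3% and 15.5% in control, beside 15.3% and 15.6% in Mdd and 13.97% and 12.6% in control over all miRNA labels. Tails made of T alone were the most common kind, at 80.9% and 62.9% of tailed reads in Mdd and 85.0% and 73.6% in control. The most read example of miR-375 (213 and 36 reads in Mdd, 76 and 126 in control) and that of miR-532 (152 and 25 reads in Mdd, 0 and 8 in control) are shown with the tail in capitals.
miR-375, tailed: tttgttcgttcggctcgcgtgaT
miR-532, tailed: catgccttgagtgtaggaccgttT

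miR-375 had nearly the same share of reads called tailed in all libraries, 15.6% and 17.8% in Mdd and 16.3% and 16.6% in control. Among them was a 22 nt form that ends in TA where the strand shown above ends in GA. It had 64 and 47 reads in Mdd and 0 and 0 in control. Such a form can be a base change rather than a tail, and the shares without such forms were not worked out. The tailed share of miR-204 ranged widely, with 0.172% and 9.45% in Mdd and 7.36% and 18.4% in control. miR-532 was the one miRNA of the set whose tailed share was higher in both Mdd libraries than in both controls. How many of all labels part in this way was not counted. Over all miRNA labels together the share was also higher in both Mdd libraries, at 15.3% and 15.6% against 13.97% and 12.6% in control. With tailed reads it had 589 and 286 reads in Mdd and 38 and 322 in control. Its log2 fold change then became 1.78 (SE 0.78, adjusted p = 0.587 with edgeR), an alternative chosen after seeing the data.

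**Figure D4:**
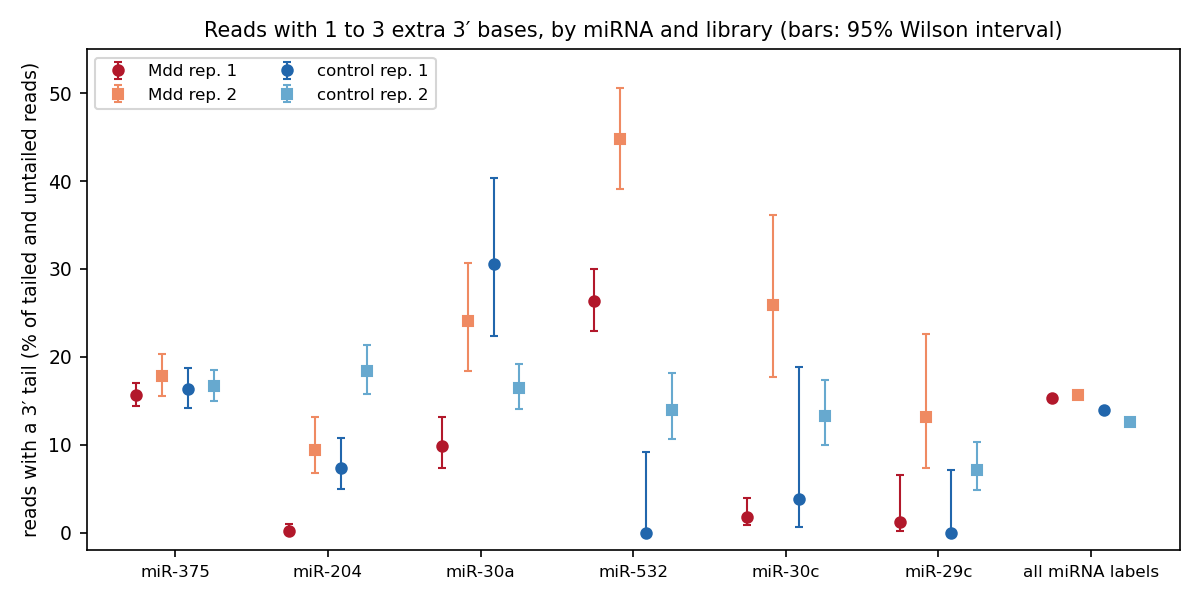
Share of reads called tailed, which lack a genome match and become a miRNA sequence once 1 to 3 bases are taken off the 3′ end. Values are in percent of tailed and untailed reads of 18 nt or longer, for 6 miRNAs and for all miRNA labels together. Points are single libraries and bars are 95% Wilson intervals. miR-375 lies between 15.6% and 17.8% in all libraries, and miR-532 is at 26.3% and 44.8% in Mdd and at 0% and 13.98% in control.

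The relatives of these miRNAs share a seed or a primary transcript with them. Of 17 listed, 9 could be tested, with 4 positive and 5 negative fold changes, 0 past the threshold with edgeR, 0 at an unadjusted p under 0.05 and a median log2 of -0.04. The most abundant were miR-92a, which has the seed of miR-32, at 30305 and 46069 CPM in Mdd and 33017 and 14776 CPM in control, and miR-30d, a further miR-30 member, at 1950 and 2925 CPM in Mdd and 3324 and 5987 CPM in control. miR-25, again with the seed of miR-32, had 1558 and 4074 CPM in Mdd and 3866 and 2138 CPM in control. miR-29a stood at 2001 and 1936 CPM in Mdd and 2295 and 4190 CPM in control. For 4 of these 9 relatives Mdd and control did not overlap, beside 38.1% of all labels tested: miR-29a and miR-30d were lower in both Mdd libraries, and miR-30e and miR-92b, named here after their values were seen, were higher. miR-30e had 1287 and 723 CPM in Mdd and 125 and 614 CPM in control, and miR-92b had 915 and 308 CPM in Mdd and 250.3 and 303 CPM in control. Of 5 other miRNAs that work on stressed fathers had named, 2 had positive and 3 negative fold changes, and 0 passed with edgeR. miR-34c and miR-449a, germ cell miRNAs of 1 family, gave 1.03 (SE 0.77) and -0.08 (SE 0.78) on the log2 scale, with 8088 and 30730 CPM of miR-34c in Mdd and 11168 and 8137 CPM in control, and 43755 and 32837 CPM of miR-449a in Mdd and 34770 and 47936 CPM in control. Those of miR-200b, miR-672 and miR-466c were -0.08 (SE 1.58), 3.02 (SE 2.45) and -1.25 (SE 2.20), each from at most 140 reads in any library.

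**Figure D5:**
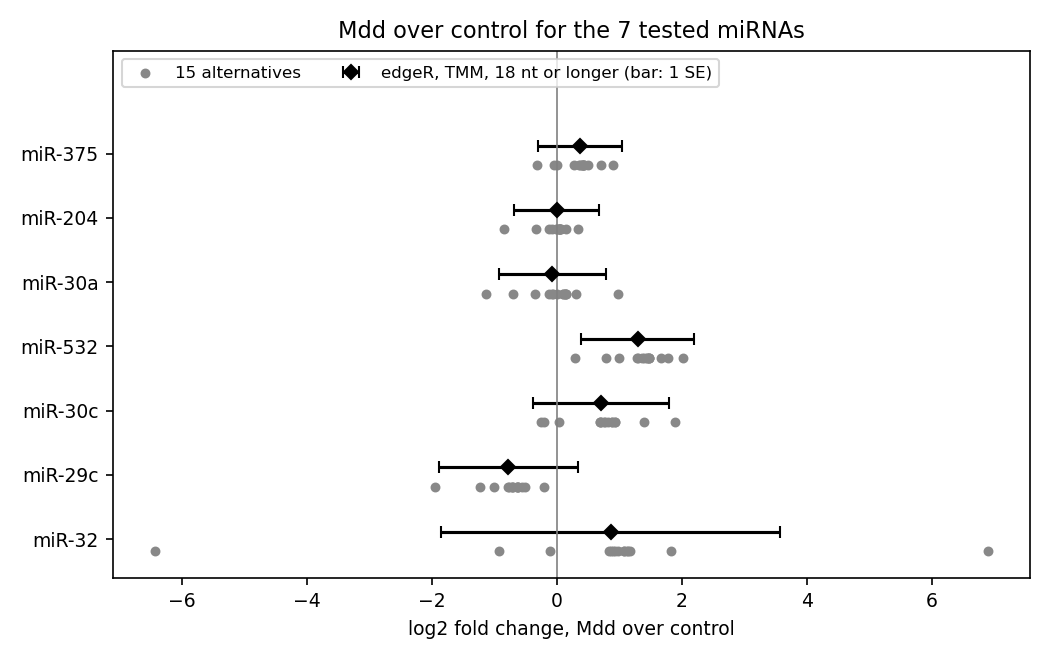
Log2 fold change of Mdd over control for the 7 miRNAs tested; diamonds are edgeR values with 1 SE and grey points are the 15 alternatives, among them each library left out. miR-532 lies right of 0 and miR-29c left of 0 in all of them, while the points of the other 5 fall on both sides.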

How the data were processed

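Small RNA of 4 libraries was used, 2 Mdd and 2 control. The deposited tables hold 1 row per distinct sequence of 15 to 45 nt with its read count, length, genome match and annotation, per the file headers, and the counts were used as the authors gave them. Per the submitters' processing notes, mm9 and DESeq2 were used. Aligner and trimming were not given in the sources used here. Annotations name hairpins, so counts were summed per hairpin name without copy number, and rows that name several hairpins kept a joint label. A sequence annotated in any library kept that annotation in all of them.

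Reads of 18 nt or longer, the lower end of the range selected per the labels' protocol, were tested over all miRNA labels with edgeR 4.0.16 (quasi-likelihood, TMM, filterByExpr, two-sided, Benjamini-Hochberg adjustment, threshold 0.05) in R 4.3.3. Standard errors were derived from each log2 fold change and its F value. Alternatives were all lengths, RLE, library size only or of all classes, DESeq2 1.42.0, omission of the filter, a floor of 10 on the mean CPM, annotation as deposited, joint labels left out, a replicate block and each library left out. Tailed reads added came later. Reads were placed on RefSeq hairpins (GRCm38.p6) by exact match, and the arm is the side of the hairpin's middle on which the read's middle lies. A tailed read lacks a genome match and a miRNA annotation, and becomes an annotated miRNA sequence once 1 to 3 bases are taken off its 3′ end. A base change near the 3′ end is thus counted as a tail too. Copies per sequence are the peak of the smoothed histogram of copy numbers past its first fall. Tables were made with pandas 2.3.3 under Python 3.11.15, and Wilson intervals with scipy 1.17.1. The fit was tested on simulated data. The named miRNAs are all 9 members, the 4 most abundant of a fixed list of relatives and all of a fixed list of other stress miRNAs. Others are marked as named after their values were seen. Members, lists and tests were chosen with earlier results of these data known.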

Additional observations from a re-analysis of the deposited data

Results flagged for a closer look

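Tailed reads lie outside the miRNA counts of the tables, and for miR-532 their share was above the control level in both Mdd libraries. It was 26.3% (95% Wilson interval 22.9% to 30.02%) and 44.8% (39.1% to 50.5%) in Mdd, and 0% (up to 9.18%) and 13.98% (10.6% to 18.2%) in control. The tailed reads were 155 and 128 in Mdd and 0 and 45 in control, in 3 distinct sequences in each library that had any. In Mdd replicate 2, 88 of them were a single 3p sequence. The difference between groups was not tested, and how many of all labels part in this way was not counted. Over all miRNA labels together the share was also higher in both Mdd libraries, at 15.3% and 15.6% against 13.97% and 12.6% in control.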

How the results depend on the processing

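The 7 tested miRNAs were called in none of the 15 alternatives. miR-532 stayed positive and miR-29c negative in all 15. The alternatives reuse the same libraries, so they are not independent of each other, and annotation as deposited gave the values of the main fit. Of all labels edgeR called 0, and 1 with all lengths, 1 with joint labels left out, 5 with the library size of all classes, 6 without a filter, 6 with a mean CPM of at least 10 and 4 with the replicate block. DESeq2 called 5, and leaving out 1 library gave 0 (control replicate 2) to 16 (Mdd replicate 2). The median log2 fold change of the 7 was -0.85 when scaled to reads of all classes, and it ran between -0.022 and 0.97 with a library left out. Near 0, signs turned. miR-204 was 0.15 with all lengths, 0.033 with RLE, 0.033 with DESeq2, 0.056 without a filter, 0.056 with a mean CPM of at least 10, 0.041 with joint labels left out, 0.029 with the replicate block and -0.33 to 0.33 with a library left out. miR-30a was 0.13, 0.14, 0.14, 0.10 and 0.10 under the first 5 of these, 0.14 with the block and -0.71 to 0.97 with a library left out. With the library size of all classes, miR-30c was -0.25, miR-32 -0.93 and miR-375 -0.33. With a library left out they ran from -0.20 to 1.89, from -6.43 to 6.90 and from -0.055 to 0.90. The cause of these turns was not tested. All lengths shifted the labels tested both ways by 0.16, RLE by 0.13 and the library size of all classes by -1.03 (median of the log2 differences). Same-numbered libraries did not deviate together across labels (correlation -0.03). With 1 difference per group this cannot decide whether the numbers pair the libraries, and the block is given here only. A library left alone in its group was assumed to vary like the other group. With 2 libraries a group, and 44 usual copies per sequence in Mdd replicate 1, small differences could not be resolved.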

Other observations

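Joint labels that pair one of these miRNAs with another hairpin were left out of all counts. They had 0 reads in both Mdd libraries. miR-30a/miR-30e had 2 and 59 reads of 15 to 17 nt in control replicates 1 and 2, miR-29b/miR-29c had 25 in control replicate 2, and miR-30b/miR-30c had 11 there, with 1 more of 18 nt or longer.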
